A study of Mus musculus with 6 samples.

Results

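Glycolysis and hypoxia response genes were compared between Ing1-deficient and wild-type mouse embryonic fibroblasts, as 51 genes taken by symbol. They were 4 transporters of glucose and lactate, 17 glycolytic enzymes, 5 regulators of glycolytic flux, 8 regulators of the hypoxia-inducible factors (HIF), 13 other HIF targets and 4 enzymes of the pentose phosphate pathway. Of these, 44 had a probe annotated to them alone, out of 18069 such genes on the array, and 43 could be tested. The cells were early-passage primary fibroblasts from embryos, 3 cultures (C4, C3 and B1) in which a gene-trap cassette had been inserted into the Ing1 locus and 3 cultures (H2, H3 and I2) of wild-type littermates. A culture was made from an individual embryo, and its total RNA was labelled with biotin and read on 1 CodeLink whole-genome array. Neither the strain, the age of the embryos nor the oxygen level in culture is given in the labels, which also do not say which cultures share a litter. The Ing1 protein binds a methylated histone tail and works with histone deacetylase complexes, and the comparison asked which genes change when its locus is disrupted.

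Glycolysis splits glucose into pyruvate through a fixed series of enzymes, and lactate dehydrogenase turns pyruvate into lactate when mitochondria do not take it up. Most steps are run by several isozymes, products of different genes that differ between tissues. HIF is a transcription factor of an alpha subunit (Hif1a or Epas1) and Arnt that switches on many glycolytic genes when oxygen is low. In normal oxygen, prolyl hydroxylases encoded by Egln1, Egln2 and Egln3 mark the alpha subunit, and the product of Vhl sends it to destruction. This control acts largely on the protein, which the arrays do not read.

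Good quality flags covered 55.5% to 62.1% of the 34967 transcript probes per array. Values are normalized intensities in units of each array's median, so 1 is the median probe. The targeted gene Ing1 read 1.38, 0.93 and 1.39 in C4, C3 and B1 and 11.7, 11.4 and 11.1 in H2, H3 and I2, a 9.40-fold lower mean in the deficient cells (log2 difference -3.23 ± 0.19, limma adjusted p = 0.000286). The labels do not place this probe relative to the cassette. Array H3 lay between the groups, with a Pearson r over tested probes of 0.975 to I2 and 0.960 to H2 in its own group and of 0.961, 0.970 and 0.972 to the deficient arrays C4, C3 and B1. The Y-linked gene Eif2s3y read 16.8, 16.3 and 12.1 in B1, H2 and H3 and at most 0.408 in C4, C3 and I2, so each genotype held cultures of both kinds. All 14 fibroblast markers had good flags on all 6 arrays, with 2 of 14 called higher and a median log2 difference of 0.38. The 9 macrophage markers with a probe summed to 47.6, 155 and 77.0 in C4, C3 and B1 and 49.8, 32.3 and 22.4 in H2, H3 and I2, and 3 of 7 tested were higher, while Ptprc, which defines blood cells, was below background on all 6. Proliferation markers summed to 191, 116 and 143 in the deficient arrays and 107, 116 and 104 in the wild-type arrays. Of 7 tested, 3 were called higher, with a median log2 difference of 0.66. Of 4 tested neuronal markers, 2 were called higher, with a median of 0.86. Among all genes tested, 6.02% were called higher and the median was 0.07. In such bulk samples, fewer cells of a type and less RNA per cell cannot be told apart.

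Of the 43 tested genes, 7 passed limma at an adjusted p under 0.05, all higher in the deficient cells. These were the glycolytic enzyme genes Pfkl, Aldoc, Pkm and Ldha, the oxygen sensor gene Egln1, and the HIF targets Bnip3 and Higd1a. The share was 16.3%, against 6.02% called higher and 7.63% called either way among all 11893 genes tested. The members were chosen with earlier results of these data known, so this contrast is a description and no test of enrichment. Groups did not overlap on any array for 14 genes that were higher and 5 that were lower in the deficient cells (32.6% and 11.6%), against 23.7% and 10.0% of all genes (33.7% in either direction). The median log2 difference over the 43 genes was 0.09, close to the 0.07 of all genes, and 26 of them (60.5%) lay above 0 against 57.3% of all genes. So the called genes were set among many with small or opposite differences, as the plot of differences by role shows. At an unadjusted p under 0.05 there were 19 of 43, against 28.2% of all genes.

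**Figure D1:**
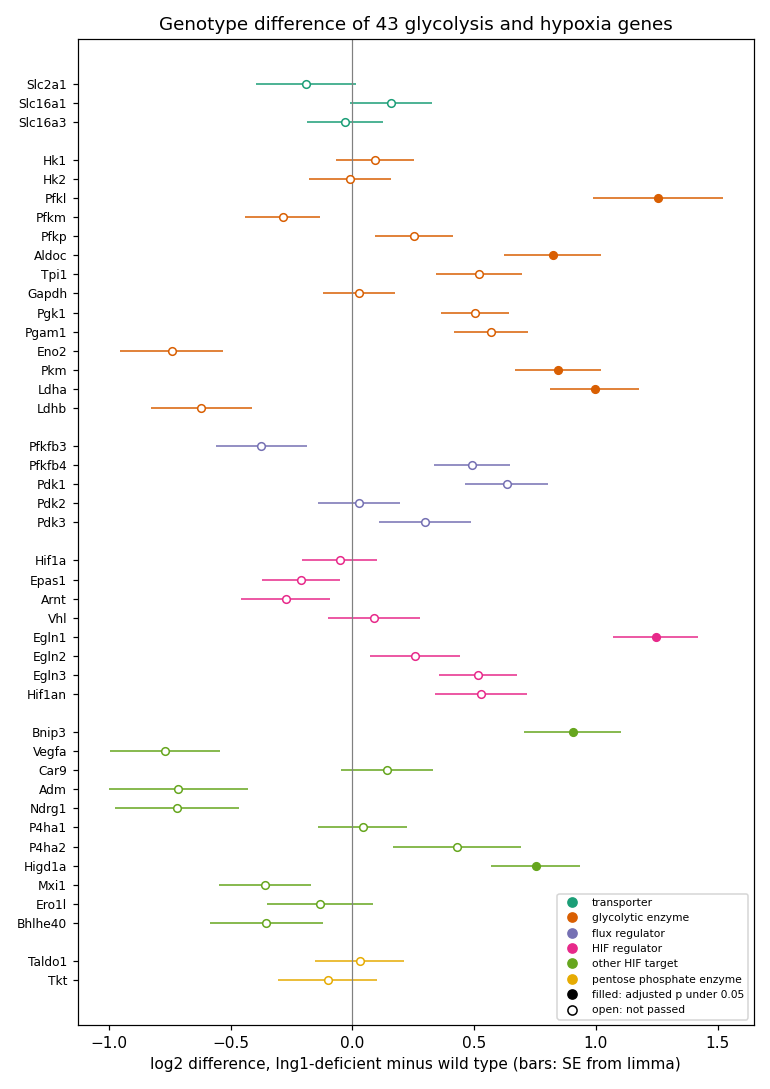
Log2 difference in normalized intensity, Ing1-deficient minus wild type, for each of the 43 tested genes (horizontal axis, bars are the standard error from limma), grouped by role and listed in pathway order. The 7 filled points, all to the right of 0, passed an adjusted p under 0.05; open points did not, and they spread from -0.77 for Vegfa to 0.63 for Pdk1.

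The called genes differed in the size of their change, as the plot of the 7 by array shows. Pfkl and Egln1 had differences of 1.25 each, and the other 5 lay between 0.75 and 0.99. Each of the 7 had its lowest deficient value above its highest wild-type value. Their RefSeq promoters (GRCm38.p6, the 250 bases before the annotated start) were searched on both strands for ACGTG and GCGTG, the core of the element that HIF binds. A CACGTG hexamer, which is also the E-box read by other factors, holds ACGTG on both strands and counts as a pair of matches. Of 65 promoters found for 46 of the 51 genes, 51 (78.5%) held a match, against 12679 of 32851 promoters in the table (38.6%). Many members were listed as HIF targets, so this contrast is in part fixed by the choice of genes. Both motifs hold the pair CG, and promoters were not matched for their CG content. The contrast is thus no support for a role of HIF in these data. The called genes had a match in 9 of 10 promoters and the tested genes that did not pass in 34 of 44 (77.3%). Promoters are shown for Ldha and Bnip3, which held the most matches among called genes, for Egln1, the sensor, and for Pkm, whose other listed promoter held 0. Matches are in capitals, each sequence reads 5' to 3' on its gene's strand, and a match says nothing of binding.
Ldha (chr7:46845554-46845803, plus strand): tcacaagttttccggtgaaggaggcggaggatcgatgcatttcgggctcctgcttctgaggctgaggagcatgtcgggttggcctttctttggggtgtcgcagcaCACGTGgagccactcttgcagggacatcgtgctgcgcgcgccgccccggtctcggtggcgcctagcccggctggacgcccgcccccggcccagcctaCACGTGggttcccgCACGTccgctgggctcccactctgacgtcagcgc
Bnip3 (chr7:138909507-138909756, minus strand): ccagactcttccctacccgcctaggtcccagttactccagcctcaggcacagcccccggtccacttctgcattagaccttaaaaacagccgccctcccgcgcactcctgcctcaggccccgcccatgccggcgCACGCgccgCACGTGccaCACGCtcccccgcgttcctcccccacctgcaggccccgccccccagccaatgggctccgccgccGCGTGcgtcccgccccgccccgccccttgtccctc
Egln1 (chr8:124949255-124949504, minus strand): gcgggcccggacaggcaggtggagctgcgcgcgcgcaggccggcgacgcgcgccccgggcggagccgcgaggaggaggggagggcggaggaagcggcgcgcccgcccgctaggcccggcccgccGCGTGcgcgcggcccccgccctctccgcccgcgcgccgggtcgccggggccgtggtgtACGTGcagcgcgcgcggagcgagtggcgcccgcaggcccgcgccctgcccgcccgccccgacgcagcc
Pkm (chr9:59656977-59657226, plus strand): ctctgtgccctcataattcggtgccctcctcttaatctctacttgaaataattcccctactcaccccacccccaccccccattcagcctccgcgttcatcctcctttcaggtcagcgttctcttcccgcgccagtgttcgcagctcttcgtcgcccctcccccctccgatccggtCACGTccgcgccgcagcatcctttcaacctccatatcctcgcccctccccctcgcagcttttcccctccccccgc
Counting back from -1 at the last base, the Ldha matches began at -145, -144, -48, -47 and -34 and those of Bnip3 at -117, -108, -107, -99 and -35. Egln1 held a match at -126 and another at -68, and Pkm held 1 at -75.

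**Figure D2:**
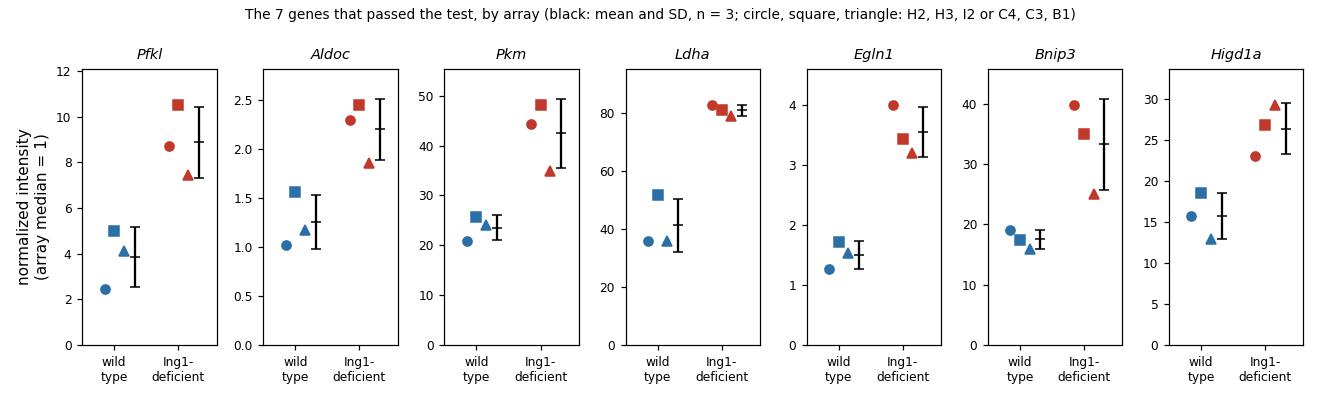
Normalized intensity (vertical axis, array median set to 1, axis from 0 in each panel) of the 7 genes that passed the test on each array, wild type in blue and Ing1-deficient in red, with the mean and SD in black (n = 3). In every panel the 3 deficient points lie above the 3 wild-type points, from a 1.69-fold difference in Higd1a to 2.39-fold in Pfkl.

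None of the 3 tested transporters passed by its brightest probe. Slc2a1, the glucose carrier of most dividing cells, read 3.58, 2.66 and 2.17 in the deficient and 3.24, 3.41 and 2.78 in the wild-type arrays (-0.19 ± 0.21, adjusted p = 0.601), and the groups overlapped. The lactate carrier Slc16a1 overlapped too (0.16 ± 0.17, adjusted p = 0.594). Slc16a3, the lactate exporter of glycolytic cells, was read differently by its probes. The brighter overall gave 6.69, 5.39 and 5.69 in the deficient and 6.35, 6.17 and 5.58 in the wild-type arrays (-0.03 ± 0.16, adjusted p = 0.931). The other gave 7.48, 7.90 and 6.80 against 4.73, 4.03 and 3.54, without overlap, and passed (0.86 ± 0.17, 1.81-fold, adjusted p = 0.0295). The direction for Slc16a3 is thus unsettled. The probe of Slc2a3 was below background on all 6 arrays and was not tested.

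Among glycolytic enzymes, 14 of 17 were tested and 4 rose, at the steps of phosphofructokinase, aldolase, pyruvate kinase and lactate dehydrogenase. Of the genes at the steps between, Pgk1, Pgam1 and the brighter probe of Tpi1 were higher in every deficient array, Eno2 and the dimmer probe of Tpi1 were lower in every deficient array, Gapdh overlapped, and none of these passed. The median log2 difference over the 14 was 0.38, equal at this rounding to that of the fibroblast markers, and 10 lay above 0. That median was 0.21 after normexp background correction, 0.26 after quantile normalization and 0.18 with the mean of a gene's probes, against 0.00 and -0.01 over all genes in the normexp and quantile settings. No probe was named for Gpi1 or Eno1 alone, and that of Aldoa was shared with another gene and not used. So the isomerase step and the main aldolase and enolase isozymes were not assessed here.

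At the entry of glucose, the hexokinase genes Hk1 and Hk2 overlapped between genotypes. Hk1 read 7.09, 8.24 and 6.23 in C4, C3 and B1 and 6.64, 6.42 and 7.04 in H2, H3 and I2 (0.09 ± 0.16). Hk2 read 12.4, 11.2 and 10.1 against 12.9, 9.85 and 11.3 (-0.01 ± 0.17). At the committed step, Pfkl, the liver-type phosphofructokinase, read 8.70, 10.5 and 7.42 in the deficient and 2.43, 4.99 and 4.12 in the wild-type arrays. All deficient values lay above all wild-type values, with means of 8.88 ± 1.56 and 3.85 ± 1.30 (SD, n = 3 each) and a rise of 1.25 ± 0.27 on the log2 scale (2.39-fold, adjusted p = 0.0334). The muscle type, Pfkm, went the other way without passing, at 10.8, 9.62 and 10.6 against 14.1, 11.5 and 12.4 (-0.29 ± 0.15, adjusted p = 0.274). The platelet type, Pfkp, read 16.4, 19.4 and 19.7 against 13.9, 17.1 and 15.5 (0.25 ± 0.16, adjusted p = 0.350), with H3 inside the deficient range.

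Aldoc, the brain-type aldolase, rose by 0.82 ± 0.20 (1.77-fold, adjusted p = 0.0452). It was dim, at 2.29, 2.45 and 1.85 in the deficient and 1.02, 1.56 and 1.18 in the wild-type arrays, and its spot in C4 carried an irregular-shape flag. Tpi1, which interconverts the triose phosphates, had probes of opposite sign. Its brighter probe read 4.82, 3.71 and 3.52 against 2.81, 3.05 and 2.50 (0.52 ± 0.18, adjusted p = 0.105). Its dimmer probe read 1.19, 1.53 and 1.34 against 1.59, 1.65 and 1.73 (-0.30 ± 0.16, adjusted p = 0.258). Both were free of overlap and neither passed. Gapdh was represented by a probe at 1.83 to 2.17 on all 6 arrays (0.03 ± 0.15, adjusted p = 0.929) with overlap, and its other probe was below background on all arrays.

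The next steps make ATP and move the remaining phosphate, and their genes varied little within a genotype. Pgk1, the phosphoglycerate kinase, read 74.8, 71.6 and 72.7 in the deficient and 52.4, 51.8 and 50.2 in the wild-type arrays. The 1.42-fold difference was many times the SD of either group (73.0 ± 1.62 and 51.4 ± 1.16), yet limma, which moderates such small variances, gave an adjusted p of 0.0641. Pgam1, the phosphoglycerate mutase, read 133, 111 and 111 against 80.4, 75.5 and 82.7 (0.57 ± 0.15, 1.48-fold, adjusted p = 0.0579). Neither passed, and neither had overlapping groups. Eno2, the neuronal enolase, was the enzyme with the lowest difference, at 3.08, 3.76 and 2.59 against 5.40, 4.09 and 6.37 (-0.74 ± 0.21, adjusted p = 0.0692), lower in each deficient array than in any wild-type array.

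At the end of the pathway, Pkm, which encodes the pyruvate kinase of most tissues, read 44.3, 48.2 and 34.8 in the deficient and 20.9, 25.8 and 24.0 in the wild-type arrays. It rose 1.79-fold (0.84 ± 0.18, adjusted p = 0.0330). Ldha, the lactate dehydrogenase subunit that favours lactate, read 82.8, 80.8 and 78.7 against 35.8, 51.8 and 35.8, with H3 the highest of the wild-type arrays. It rose 1.99-fold (0.99 ± 0.18, adjusted p = 0.0272), from 41.2 ± 9.23 to 80.7 ± 2.04 (SD, n = 3). Another Ldha probe was below background on all arrays. Ldhb, the subunit of oxidative tissues, read 10.9, 7.88 and 13.7 against 15.5, 16.3 and 16.8, lower in every deficient array without passing (-0.62 ± 0.21, adjusted p = 0.101).

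Isozymes of the same step thus did not move alike, and pairs of them were set against each other on each array; the pairs were chosen after their values were seen, so these ratios are a description with no test. Probes differ in brightness, so only the shift of a pair's log2 ratio between arrays can be read, not its level. The Ldha over Ldhb ratio was 2.94 ± 0.42 in the deficient and 1.32 ± 0.31 in the wild-type arrays (log2, SD, n = 3), a shift of 1.61. That of Pfkl over Pfkm shifted by 1.54, from -1.78 ± 0.68 in wild type to -0.24 ± 0.33, and that of Pfkl over Pfkp by 1.0. The ranges did not overlap in any of these pairs. For Pfkl over Pfkm and Ldha over Ldhb this had to be so, as each gene was free of overlap in opposite directions, and it adds no support. Hk1 over Hk2 shifted by 0.10, within the SD of 0.18 to 0.19 of either group. The plot of isozymes by array shows the split at the phosphofructokinase and lactate dehydrogenase steps.

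**Figure D3:**
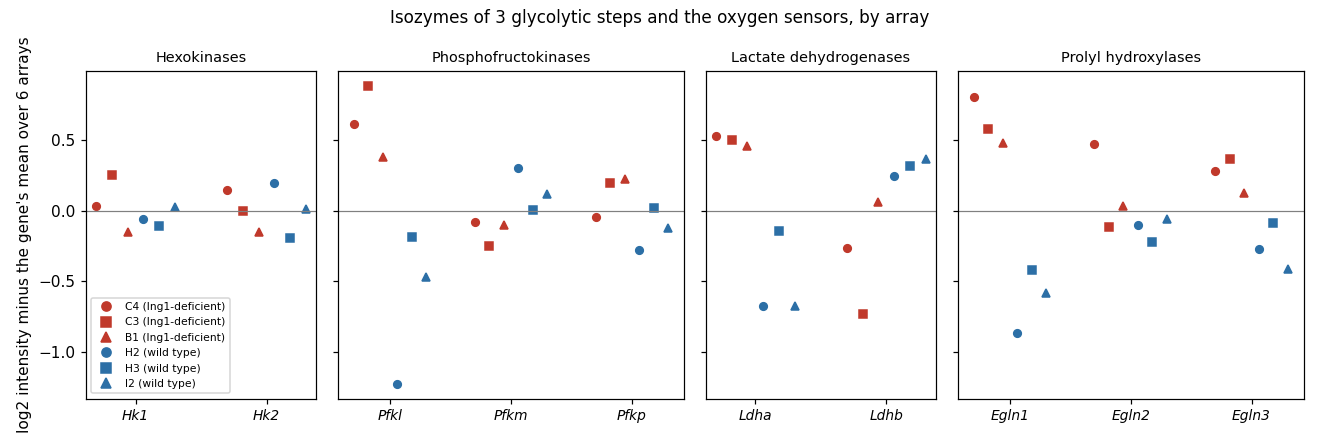
Log2 normalized intensity minus the gene's own mean over the 6 arrays (vertical axis) for isozymes of 3 glycolytic steps and for the HIF prolyl hydroxylases, 1 point per array. Pfkl, Ldha and Egln1 separate the deficient arrays (red) above the wild-type arrays (blue), Ldhb and Pfkm lie the other way, and Hk1 and Hk2 overlap.

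Of the 5 flux regulators, 0 passed limma's adjusted threshold and 2 had an unadjusted p under 0.05, Pdk1 and Pfkfb4. Pdk1, a kinase that shuts pyruvate dehydrogenase and so keeps pyruvate out of the mitochondria, read 3.83, 3.38 and 2.85 in the deficient and 1.99, 2.43 and 2.05 in the wild-type arrays (0.63 ± 0.17, 1.55-fold, adjusted p = 0.0609). Pfkfb4, which makes and removes the activator of phosphofructokinase, read 2.55, 2.70 and 2.31 against 1.78, 2.00 and 1.61 (0.49 ± 0.16, adjusted p = 0.0906). In both, every deficient array was above every wild-type array, as in 23.7% of all genes. The Pdk1 spot in C4 and the Pfkfb4 spot in H3 carried irregular-shape flags. Pdk2, Pdk3 and Pfkfb3 overlapped, with differences of 0.03, 0.30 and -0.37. Pfkfb3, the paralogue of Pfkfb4 with the strongest activating side, lay below 0.

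Of the 8 HIF regulators, 1 rose (12.5%, against 6.02% called higher among all genes). Egln1, the main prolyl hydroxylase in most cells, read 4.01, 3.44 and 3.21 in the deficient and 1.26, 1.72 and 1.53 in the wild-type arrays. Its spot in C3 carried an irregular-shape flag. Means were 3.56 ± 0.412 and 1.505 ± 0.229, a 2.37-fold rise (1.25 ± 0.17, adjusted p = 0.0172), the lowest adjusted p of the 43 genes. Its paralogue Egln3, itself a HIF target, read 3.20, 3.40 and 2.88 against 2.18, 2.48 and 1.98, without overlap and without passing (0.52 ± 0.16, adjusted p = 0.0828). Egln2, the third paralogue, read 9.86, 6.55 and 7.26 against 6.62, 6.08 and 6.83, with C3 inside the wild-type range (0.26 ± 0.18, adjusted p = 0.414). The Egln1 over Egln2 log2 ratio shifted by 0.99 and that over Egln3 by 0.73, as a description.

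The subunits of HIF itself gave no call. Hif1a, the oxygen-labile alpha subunit, read 10.6, 11.6 and 11.6 against 10.7, 11.2 and 13.3 (-0.05 ± 0.15, adjusted p = 0.868). Its partner Arnt overlapped as well (-0.27 ± 0.18, adjusted p = 0.376), and so did Vhl, the ubiquitin ligase subunit (0.09 ± 0.19, adjusted p = 0.805). Epas1, which encodes HIF-2 alpha, was flagged below background on the 3 deficient arrays, at 0.61, 0.27 and 0.44 in C4, C3 and B1. It read 0.74, 0.72 and 0.55 in H2, H3 and I2, so the groups overlapped. Epas1 was tested only through its good flags in wild type, and its difference did not pass (limma adjusted p = 0.446). Hif1an, the asparagine hydroxylase that blocks the activation domain, read 9.93, 7.06 and 7.20 against 5.02, 6.45 and 5.19 with its brightest probe, without overlap (0.53 ± 0.19, adjusted p = 0.119). Its other probes gave -0.08 and 0.05, so that difference was seen with 1 of 3 probes.

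The other HIF targets went in both directions. Of 11 tested, 2 rose (18.2%, against 6.02% called higher among all genes), 9 did not pass, and the median log2 difference was -0.13. Bnip3, a mitochondrial protein that starts mitophagy, read 39.9, 35.0 and 25.0 in the deficient and 19.1, 17.5 and 15.9 in the wild-type arrays. It rose 1.87-fold (0.90 ± 0.20, adjusted p = 0.0359), with means of 33.3 ± 7.57 and 17.5 ± 1.62. Higd1a, a small protein of the mitochondrial inner membrane, read 23.1, 26.8 and 29.3 against 15.7, 18.6 and 12.96 and rose 1.69-fold (0.75 ± 0.18, adjusted p = 0.0452). Both encode mitochondrial proteins.

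The secreted and stress-related targets were lower or overlapped. Vegfa, the angiogenic growth factor, read 3.49, 4.41 and 4.54 in the deficient and 9.10, 5.14 and 7.39 in the wild-type arrays (-0.77 ± 0.23, 1.70-fold lower, adjusted p = 0.0736). Ndrg1, a stress-response gene, read 3.66, 3.56 and 3.48 against 8.59, 3.98 and 5.95 (-0.72 ± 0.25, adjusted p = 0.115). In both the groups did not overlap, H3 was the wild-type array nearest to the deficient ones, and the test was not passed. Adm, the vasodilator peptide adrenomedullin, read 8.45 and 9.18 in C4 and B1 but 18.4 in C3, inside the wild-type range of 15.8 to 21.4 (-0.71 ± 0.29, adjusted p = 0.153). Car9, a carbonic anhydrase that is among the most specific HIF-1 targets, was near background, between 0.63 and 0.86 in the deficient arrays, at 0.65 and 0.81 in H3 and I2, and below background in H2. The collagen prolyl hydroxylases P4ha1 and P4ha2 gave 0.04 and 0.43, and no probe was named for Bnip3l or Ankrd37 alone.

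A group of targets shared a pattern within wild type. Bhlhe40, a transcriptional repressor, read 7.36 and 6.20 in H2 and I2 but 3.85 in H3, below the deficient values of 4.19 to 4.55. Its spot in H3 carried an irregular-shape flag. Mxi1, a Myc antagonist, read 5.26 and 4.66 in H2 and I2 and 3.49 in H3, and Ero1l, an oxidase of the endoplasmic reticulum named Ero1a in RefSeq, 18.2 and 14.9 against 10.3. P4ha1 followed the same order, at 27.2 and 22.4 against 18.5. With Vegfa and Ndrg1, these 6 targets were all lower in H3 than in H2 and I2 by their brightest probes, as the plot of targets by array shows. They were picked after their values were seen, and the order was not particular to HIF targets. Hk2, Pfkm, Arnt, Vhl, Taldo1 and Tkt had it too, with Tkt at 45.6, 34.0 and 39.4 in H2, H3 and I2. Ldha went the other way, at 35.8, 51.8 and 35.8. The share of all genes with this order was not taken. The other tested probes of Mxi1 and Ero1l did not follow, as that of Mxi1 was highest in H3 (0.62, 1.04 and 0.71 in H2, H3 and I2) and that of Ero1l read 1.62, 1.67 and 1.77. Without H3, Vegfa fell by 0.99 (adjusted p = 0.0159), Ndrg1 by 1.0 (adjusted p = 0.0162) and, among the enzymes, Eno2 by 0.92 (adjusted p = 0.0253), and each then passed in limma, as did Bhlhe40 in the same direction and Egln3 and Pdk1 in the other. In that fit 13.9% of all tested probes passed, against 6.57% with all 6 arrays. The median of the 11 targets was -0.36 without H3 and 0.03 without H2, so its sign turned when H2 was left out.

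**Figure D4:**
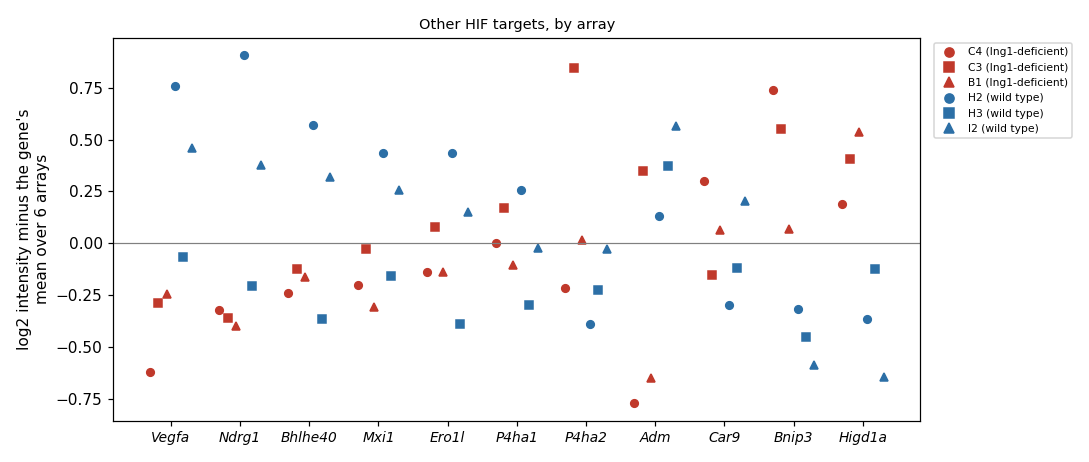
Log2 normalized intensity minus the gene's own mean over the 6 arrays (vertical axis) for the 11 tested HIF targets that are not glycolytic enzymes or regulators, 1 point per array. From Vegfa to P4ha1, the wild-type arrays H2 and I2 (blue circle and triangle) lie above H3 (blue square), while Bnip3 and Higd1a set all deficient arrays above all wild-type arrays.

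The roles differed in how evenly the arrays fell. For each array, the median over a role's genes of the log2 intensity minus the gene's mean was taken as a description. For glycolytic enzymes it was 0.22, 0.20 and 0.12 in C4, C3 and B1 and -0.23, -0.13 and -0.17 in H2, H3 and I2. The flux regulators ran from 0.03 to 0.26 in the deficient and from -0.24 to -0.14 in the wild-type arrays, and the HIF regulators from 0.02 to 0.12 and from -0.12 to -0.10. For the other HIF targets it was -0.20, 0.08 and -0.14 in the deficient arrays and 0.26, -0.20 and 0.20 in the wild-type arrays, where H3 shared its value with C4. The genotypes were therefore apart for the enzymes, flux regulators and HIF regulators and mixed for the other targets, the transporters and the pentose phosphate enzymes, as the plot by role shows. The difference between roles was not tested. Being apart was not particular to these roles. The fibroblast markers, at 0.10, 0.27 and 0.16 against 0.00, -0.07 and -0.10, were apart too. So were the macrophage, neuronal and proliferation markers and the 43 members pooled, while the endothelial, epithelial and skeletal muscle markers were mixed. No such median was taken over all genes.

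**Figure D5:**
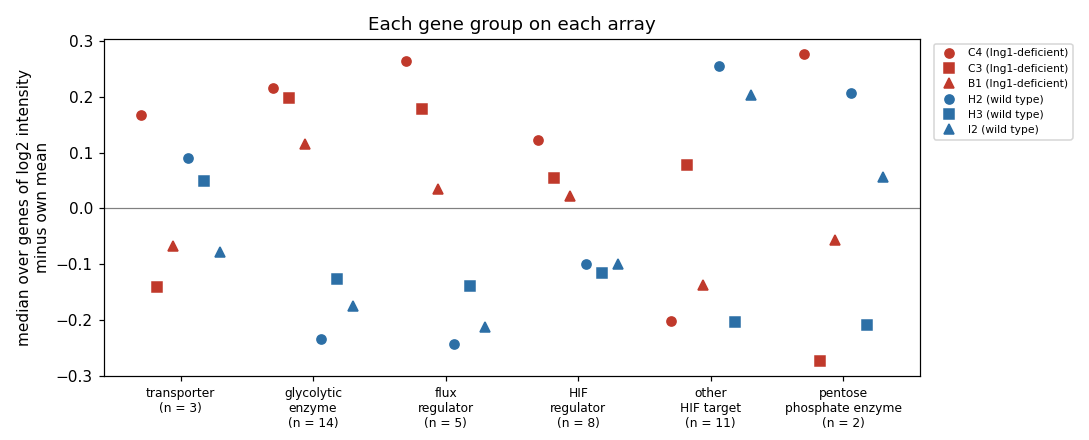
Median over the genes of each role of log2 normalized intensity minus the gene's own mean (vertical axis), 1 point per array, for the 6 roles with their number of tested genes. Glycolytic enzymes, flux regulators and HIF regulators place the 3 deficient arrays (red) above the 3 wild-type arrays (blue), and the other HIF targets do not, with H2 and I2 at 0.26 and 0.20 and H3 at -0.20.

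The oxidative arm of the pentose phosphate pathway leaves glycolysis after hexokinase, and the non-oxidative arm exchanges sugar phosphates with it further down. No probe was named for G6pdx or Pgd alone, which encode the oxidative enzymes. Of the non-oxidative enzymes, Taldo1 read 11.7 to 16.1 in the deficient and 11.3 to 15.01 in the wild-type arrays (0.03 ± 0.18) and Tkt 29.9 to 46.8 against 34.0 to 45.6 (-0.10 ± 0.20). Neither passed and both overlapped.

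A wider list of 78 further genes of these pathways, kept apart from the 51, had 51 tested, of which 5 rose, 1 fell and 45 did not pass, with a median log2 difference of 0.01. The share that rose was 9.80%, against 6.02% higher and 1.61% lower among all genes, so the list as a whole lay near that background and its members are named only to complete the pathways. Of 22 tested in glycolysis and pyruvate use, 3 rose. These were Tigar, a phosphatase that draws sugar phosphates away from glycolysis (1.11 ± 0.25, adjusted p = 0.0389), Bpgm, which makes bisphosphoglycerate (0.62 ± 0.15, adjusted p = 0.0447), and Gys1, the glycogen synthase of muscle and other tissues (0.72 ± 0.18, adjusted p = 0.0472). Of 16 further HIF targets, 2 rose. Fam162a, a mitochondrial protein, went from 28.3 ± 4.103 to 63.3 ± 9.34 (1.16 ± 0.18, adjusted p = 0.0194). Ak4, a mitochondrial adenylate kinase, was at least 2.44-fold higher (limma adjusted p = 0.0273), its wild-type spots being below background. It was tested only through its good flags in the deficient arrays. Its wild-type values were all set to the floor and so had no spread. Its adjusted p is therefore no support, though Ak4 is in the counts above. Of 7 in the HIF pathway, Hif3a, an alpha subunit that can restrain the others, fell from 3.75 ± 1.47 to 1.47 ± 0.352 (-1.30 ± 0.29, adjusted p = 0.0359). Of 6 further pentose phosphate genes, 0 passed limma, before or after adjustment. A dimmer probe of Eloc, a subunit of the Vhl ligase, passed at 1.65 ± 0.31 (adjusted p = 0.0285) where its brightest gave 0.12, so Eloc is not counted.

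The 7 calls were close to the threshold, and their number moved with single arrays. Without C4, B1, H2 or I2, 0 of 43 genes passed limma's adjusted threshold, with 18, 17, 17 and 14 at an unadjusted p under 0.05; without C3, Egln1 and, in the other direction, Adm passed; and without H3, 13 passed, 9 higher and 4 lower, including all 7. Over all tested probes, 0.27%, 0.026%, 0.12% and 0.087% passed without C4, B1, H2 and I2, and 1.94% without C3. Without H3, 13.9% of all tested probes passed, against 30.2% of the members. The number passing thus moved with the array left out over all probes, not in these genes alone. After quantile normalization 1 of 43, Egln1, passed, against 3.77% of all tested probes. The part of the macrophage, proliferation and neuronal markers that moved with genotype in these differences was not tested.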

How the data were processed

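Total RNA of 6 fibroblast cultures, 3 per genotype, was read on 6 1-colour arrays. Per the labels and the file headers, the authors quantified the scans with CodeLink Expression Analysis 4.1.0.29054 and median normalized them. The deposited intensity is the spot mean minus local background over the array's median, on a linear scale, as worked out from the values. The series table holds the same intensity (217362 of 217362 values equal). The genome build is not given in the sources used here.

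Values under a floor of 0.57 (the median over arrays of the 1st percentile of good-flag probes) were set to it before log2. Masked spots were missing. Tested were 19575 transcript probes whose 3 spots in at least 1 genotype had good flags, with limma 3.58.1 in R 4.3.3 (two-sided, Benjamini-Hochberg over all tested probes, threshold 0.05); 1286 passed (6.57%), and the fit was tested on simulated data. Each gene took the value of its brightest tested probe, by the mean over arrays. Symbols came from the platform annotation (21615 probes with 1 gene, 681 with several, 12671 with none), matched to RefSeq GRCm38.p6 for 21487. ± after a mean is the SD, and after a log2 difference the standard error. A probe below background on all arrays of a genotype gives only a lower bound of the fold, against the higher of its own signal and the lowest good-flag signal of each array.

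The members and lists were chosen with earlier results of these data known. Every member was accounted for. Values on every array were given for Ing1, for members that passed, for members whose groups do not overlap, for members with disagreeing probes of which 1 passed, and for their isozymes; some others were named after their values were seen. Pathway genes outside the 51 were named where they passed. Of the other marker lists, 0 of 2 tested endothelial, 0 of 3 epithelial and 0 of 6 skeletal muscle genes passed limma, with 0, 0 and 1 at an unadjusted p under 0.05, and the 3 erythroid genes with a probe could not be tested. Sums of those markers, deficient against wild type, were 4.07 to 4.89 against 3.19 to 3.65, 4.52 to 7.40 against 5.08 to 6.84, 23.5 to 55.0 against 22.9 to 28.4, and 0.605 to 1.08 against 0.760 to 1.34. Neuronal markers summed to 8.42 to 10.5 against 5.13 to 6.21. The number of arrays limits the precision.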

Additional observations from a re-analysis of the deposited data

How the results depend on the processing

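With a robust variance trend, the series table, good flags required on all 6 arrays, or the mean of a gene's probes, 6 to 9 members were called. Good flags on all 6 arrays left 32 members to test and called 6, of which 5 were among the 7, Pgam1 being added. Egln1 and Aldoc, each with an irregular-shape flag, were not tested in that setting. The other settings named here called all 7. It was 4 with normexp background correction, 1 with quantile normalization, 1 with a floor of 0.01, 1 with a floor of 2 times the one used, 1 with no filter on flags, 19 with array weights, 32 with the leading letter of the label as a random block (estimated correlation -0.89), and 0 and 16 with the methods' t-test after and before Benjamini-Hochberg. The 1 member was Egln1 with quantile normalization and with the floor of 0.01, and Pgk1 with the doubled floor and without the filter. Leaving out each array gave 0 to 13. For all tested probes, 1286 in the reported setting, the same alternatives gave 576, 737, 275, 191, 20, 4721, 12898, 7 and 3926, and leaving out each array gave 5 to 2726. Quantile normalization called 447 higher and 290 lower (60.7% higher), array weights 2882 and 1839 (61.0%) and the letter block 7184 and 5714 (55.7%), against 967 and 319 (75.2%) as reported. The letter lies within a genotype, and a negative correlation narrows the errors.

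The median difference of glycolytic enzymes, 0.38, was 0.21 with normexp, 0.26 with quantile normalization, 0.25 with good flags on all 6 arrays, 0.18 with the mean of probes and 0.35 to 0.42 with an array left out. That of HIF regulators, 0.17, was 0.076 with normexp, 0.083 with quantile normalization, 0.11 with array weights, 0.13 with the mean of probes and 0.072 (without H3) to 0.26 (without H2) with an array left out. That of the other HIF targets, -0.13, ranged from -0.36 (without H3) to 0.028 (without H2). For Ing1 and the 19 members that passed or did not overlap between groups, 259 alternative values kept their direction and side of the threshold, 73 lost and 44 gained the call, and 0 turned direction. Many alternatives leave the difference itself as it was and change only its error or the set of probes. The groups of these genes do not overlap, so leaving out an array could not turn a direction. That 0 turned was thus largely fixed in advance and is no support. Egln1 passed in 9 of 12 alternatives and 2 of 6 fits with an array left out, Ldha and Bnip3 in 8 of 13 and 1 of 6, Pfkl, Pkm and Higd1a in 7 of 13 and 1 of 6, and Aldoc in 6 of 12 and 1 of 6. These counts are no measure of stability. The series table holds the same values, so its pass was fixed in advance. The methods' t-test before Benjamini-Hochberg was counted at an unadjusted p under 0.05, and the letter block called 65.9% of all tested probes. Each of these genes had 1 tested probe, so the mean of its probes reused the same values.

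No paired analysis was possible because the genotypes share only the replicate number 3, on C3 and H3. A slide or scan block was not run, since every array is its own slide and the headers give no scan time. Isozyme ratios were an alternative chosen after seeing the data. Signal over background limits the members near the floor, Epas1 and Car9.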
